A study of Mus musculus with 12 samples.

Results

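The ribosomal protein genes of the cytosolic ribosome were examined in hematopoietic stem cells of mice with and without the Eµ-myc transgene and the inflammatory caspases. Members were the protein-coding genes whose symbol begins with Rpl or Rps and ends in a number with at most a short suffix, together with Rplp0, Rplp1, Rplp2 and Rpsa, at a mean count of at least 10 over the libraries. The rule took 77 of the 27179 genes listed, 46 of the large and 31 of the small subunit, and used no measured difference. All 77 passed the filter on low counts and were tested. The lowest mean count was 282, for Rpl39.

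Hematopoietic stem cells, which renew all blood lineages, had been sorted and their total RNA sequenced in 12 libraries, 1 per C57BL/6J mouse and 3 per genotype. WT was wild type (WT2, WT3 and WT4), and E carried Eµ-myc (E1, E2 and E3), a Myc transgene under an immunoglobulin heavy chain enhancer, which drives it chiefly in the B lineage. C was Casp1 -/- Casp11 -/- (C1, C2 and C3), and CE carried both the transgene and the caspase deletion (CE1, CE2 and CE3). All 4 groups share the strain. The sources used here do not give the age or sex of the mice or the sort gate. Casp1 and Casp11 encode inflammatory caspases of the pyroptosis pathway, and Casp11 is listed as Casp4.

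Each ribosome carries 1 copy of most of these proteins, so their genes are expressed in balance. Many of their mRNAs begin with a run of pyrimidines, the terminal oligopyrimidine tract, through which mTORC1 signalling sets their translation, and Myc is a known activator of ribosome production. Blood formation is sensitive to the supply of ribosomal proteins: inherited loss of 1 copy of RPS19 and of several other members causes Diamond-Blackfan anaemia, and loss of RPS14 belongs to a myelodysplastic syndrome. Rpl5 and Rpl11 also bind Mdm2 when ribosome assembly fails, which stabilises p53.

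The start sites of the members that the results turn on are shown first, because the pyrimidine tract lies there. Each window runs from 60 bases before to 20 bases from the annotated start in RefSeq (GRCm38.p6, matched by gene for 57 of the 77 members), read 5′ to 3′ on the gene's strand, with the pyrimidine run of at least 5 bases over or nearest to the start in capitals. Rpl36a (chrX:134585594-134585673, plus strand), Rps3a1 (chr3:86142649-86142728, minus strand), Rps28 (chr17:33824543-33824622, minus strand) and Rpl41 (chr10:128549149-128549228, minus strand) are shown because they were among the 6 members with the largest changes. Rplp0 (chr5:115559407-115559486, plus strand) serves as a reference member. Rps6 (chr4:86857348-86857427, minus strand) and Rplp2 (chr7:141447591-141447670, plus strand) were chosen after the windows had been read, as cases in which the run covers the start.
Rpl36a: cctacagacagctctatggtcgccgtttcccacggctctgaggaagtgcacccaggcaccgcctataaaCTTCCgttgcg
Rps3a1: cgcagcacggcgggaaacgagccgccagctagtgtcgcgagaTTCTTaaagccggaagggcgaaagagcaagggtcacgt
Rps28: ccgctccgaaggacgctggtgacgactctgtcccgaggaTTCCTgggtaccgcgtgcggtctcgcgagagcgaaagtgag
Rpl41: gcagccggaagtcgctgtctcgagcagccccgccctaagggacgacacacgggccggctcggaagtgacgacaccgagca
Rplp0: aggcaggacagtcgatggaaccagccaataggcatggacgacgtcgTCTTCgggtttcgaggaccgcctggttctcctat
Rps6: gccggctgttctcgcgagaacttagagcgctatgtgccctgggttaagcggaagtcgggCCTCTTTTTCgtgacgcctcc
Rplp2: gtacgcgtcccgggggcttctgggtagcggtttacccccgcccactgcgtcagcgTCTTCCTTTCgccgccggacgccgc
In Rps6 and Rplp2 the run spans the annotated start. The Rpl41 window holds no run of 5. For 11 of the 57 members, Rps19 among them, the start used lies more than 20 bases inside the gene as RefSeq lists it, and no window of these is shown.

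A C followed by at least 4 pyrimidines stood exactly at the annotated start of 12 of the 57 members (21.1%), against 2.33% of 10519 protein-coding genes tested with a window of the same length. Allowing 10 bases on either side, 29 members (50.9%) and 32.05% of all genes held such a stretch. Within the 300 bases from 250 before to 50 after the start, read on both strands, the ETS-type motif CCGGAAG was found in 22 members (38.6%) against 17.97% of all genes. The E-box CACGTG, to which Myc and Max bind, was found in 5 members (8.77%) against 10.03%. The other motifs searched were AAGATGGC (4 members, 7.02%, against 4.67%), TATAAA (5 members, 8.77%, against 7.31%), GGGCGG (34 members, 59.6%, against 63.7%) and CCAAT (18 members, 31.6%, against 38.7%), and none of the 6 motifs contains another. These are matches of letters in annotated windows and do not show binding.

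Libraries held 24529611 to 34065910 counts, and C1 and C3 had counts for 22900 and 21247 genes against 17310 to 18863 in the others. Casp1 was at 29.8 to 47.8 CPM (counts scaled to library size and by TMM, a factor per library that aligns the bulk of genes) in WT and E and 5.10 to 6.76 in C and CE. Casp4 (Casp11) was at 12.04 to 17.2 CPM in WT and E and 7.07 to 13.7 in C and CE, called lower in the pooled caspase difference (log2 -0.49, SE 0.13, adjusted p = 0.0189) but with CE2 above WT4 and E1, so its counts alone do not show a deletion. Myc did not pass in E against WT (log2 0.03, SE 0.10, adjusted p = 0.967), so the transgene label was not checked by its counts. Y-linked transcripts summed to 91.4 to 121 CPM in all of C and in CE1 and CE2, and to at most 0.263 in the other 7 libraries, so sex and the caspase label nearly coincide and cannot be fully told apart. All 11 listed stem cell markers were tested, at 943 to 1301 CPM in sum, beside 7688 to 12339 CPM of neutrophil granule genes such as Mpo. Mast cell and basophil markers summed to 94.0 to 289 CPM in WT and E and to 72.6 to 141 in C and CE, with 6 of 8 called lower (none of the 8 was at 0 throughout a group), and macrophage markers to 48.9 to 75.2 against 44.1 to 52.2 CPM, with 3 of 8 called lower. T and NK cell markers summed to 138 to 237 against 167 to 201 CPM (3 of 7 called lower), and erythroid markers to 77.1 to 355 against 66.1 to 176 CPM (2 of 10 called lower). These calls are of the pooled caspase difference, in which 11.8% of all genes were called lower and 9.26% higher. In the same difference 1 of 8 neutrophil and 1 of 6 megakaryocyte markers were called lower. Of 9 B lineage markers 1 was called lower and 1 higher, and of 11 stem cell markers 4 were called higher. The part of these cells, of sex and of C1 and C3 in the results below was not tested except where a value is given.

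Member transcripts made up 8.43% (CE2) to 12.1% (WT4) of all counts in a library. The 3 WT shares were 11.9, 10.1 and 12.1%, and those of E were 11.8, 9.13 and 10.7%. The C shares were 9.31, 9.66 and 8.65%, and those of CE were 9.83, 8.43 and 9.87%, each in the order of the library numbers. All 3 shares of C lay below all 3 of WT, while E and CE overlapped. WT had a mean share of 11.3 ± 1.08%, E of 10.52 ± 1.32%, C of 9.21 ± 0.51% and CE of 9.38 ± 0.82% (SD, n = 3 each). Without 16 genes that were among the 10 most counted of any library, 7 of them members, the means were 9.55, 8.84, 7.60 and 7.70%. The ratio of large to small subunit counts lay between 1.26 and 1.29 in every library.

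Per kilobase of transcript, the 2 acidic stalk proteins led: Rplp1 averaged 6227 and Rplp2 4736 CPM per kb over the 12 libraries. The median member was at 1434 CPM per kb. Rpl39, a short protein of the exit tunnel, was far below all others at 16.3 CPM per kb, followed by Rpl5 at 227 and Rps20 at 520.3. The annotated transcripts of Rpl5 (2045 bases) and Rps20 (3706 bases) are long for this family, so their levels per kb may be too low. Members have many processed copies in the genome, and the sources used here do not say how reads that match several places were counted. The 33 entries named as a member symbol followed by -ps held 0.0216 to 0.0277% of the members' counts in a library. Copies listed under other names or without a symbol were not counted, so reads on processed copies in general are not measured here.

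The members varied together from library to library. In log2 CPM centred per gene, the first principal component carried 92.0% of their variance. After group means were removed, 73 of the 77 followed the mean of the other members over the 12 libraries with r above 0.8 (median r 0.97, lowest 0.53 for Rpl4). These points share each library's scaling, and r is given as a description. All 77 lay above their own mean in WT2, WT4 and E1, and none did in C3 and CE2. The mean log2 deviation of the members was 0.35, -0.01 and 0.36 in the WT libraries and 0.28, -0.20 and 0.06 in those of E, in the order of their numbers. For C the values were -0.15, -0.05 and -0.24, and for CE -0.05, -0.33 and -0.03. Libraries of 1 group thus lay far apart, E1 and E2 the most, and E2 lay lower than 4 of the 6 libraries with the caspase deletion.

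**Figure D1:**
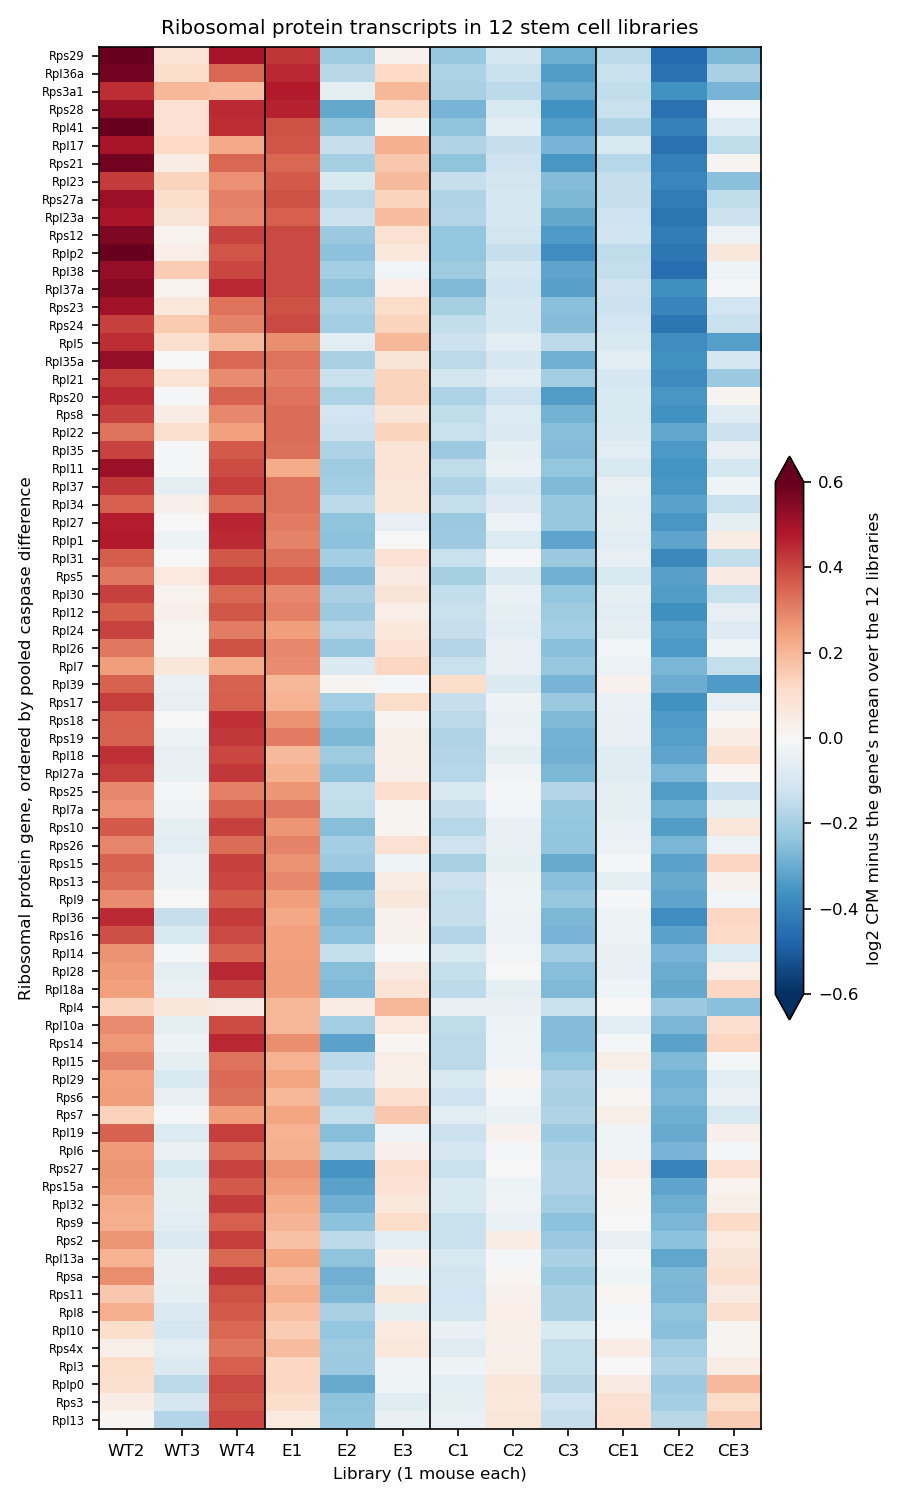
Log2 CPM of each of the 77 genes (rows, ordered by the pooled caspase difference) minus the gene's mean over the 12 libraries (columns), as colour. Whole columns share a colour: WT2, WT4 and E1 are above the mean for every gene, C3 and CE2 below it.

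The level of the members went with a property of all the other genes. Member transcripts are short, with a median of 729 bases against 2749 for all genes tested. Among genes that are no members, log2 CPM changed by -0.11, -0.12 and -0.12 per doubling of transcript length in WT2, WT4 and E1, the 3 libraries with the highest member level. It changed by 0.12 and 0.10 in CE2 and C3, the 2 with the lowest, and lay between -0.02 and 0.07 in the other 7. The group differences were also examined with a fit that removes trends of length and GC content from each library. Those trends were fitted over all genes with a length, members included, so the fit may also remove part of the members' own shift.

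**Figure D2:**
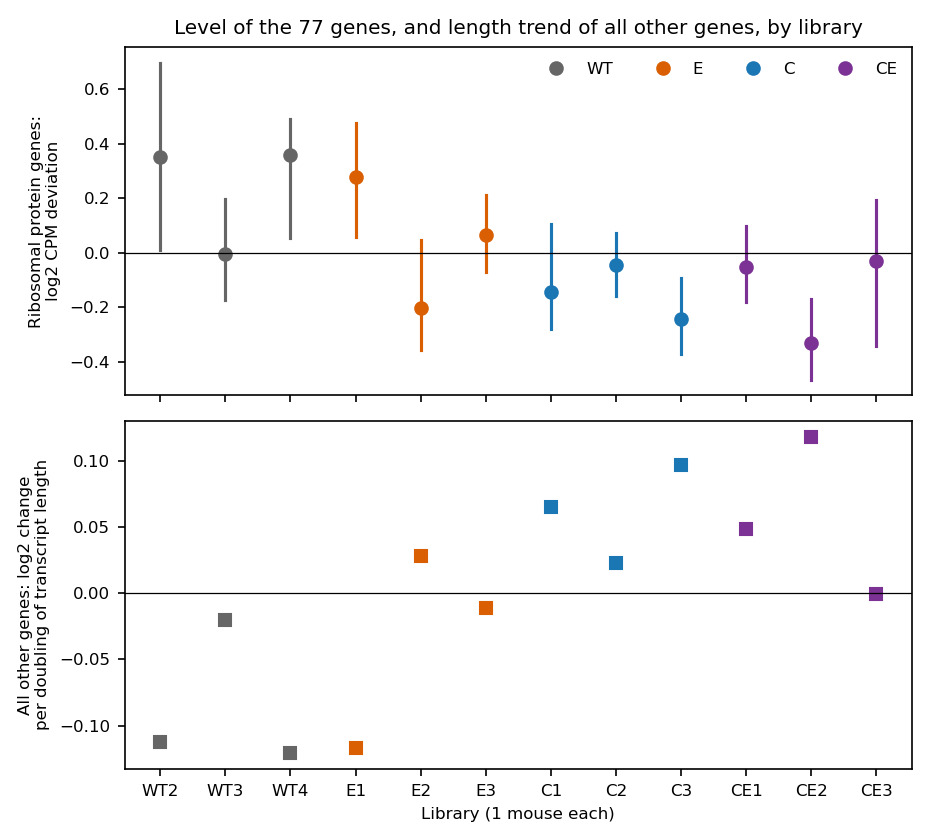
Upper panel: mean log2 deviation of the 77 genes in each library (point) with the lowest and highest gene (line). Lower panel: log2 change of all other genes per doubling of transcript length in the same library. WT2, WT4 and E1 are highest above and lowest below, and CE2 and C3 the reverse.

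The transgene changed no member past the threshold, a Benjamini-Hochberg adjusted p under 0.05 over all 14473 genes tested in edgeR's quasi-likelihood F test. In E against WT 0 members were called (0.0829% of all genes), and 0 had an unadjusted p under 0.05 (6.58% of all genes). The estimates were lower in E for 76 of the 77, with a median log2 of -0.19 against 0.00 for all genes. Over omissions of single mice the median ranged from -0.07 (without E2) to -0.30 (without WT3), and it was -0.10 with length and GC trends removed. In CE against C 0 members were called (0.207% of all genes) and 0 had an unadjusted p under 0.05 (5.14% of all genes), with 47 higher and 30 lower and a median of 0.01, which turned negative without C3, CE1 or CE3 (-0.02, -0.02 and -0.04) and with a covariate for Y-linked transcripts (-0.04), and was -0.09 without C1 and C3. It was 0.11 without CE2 and 0.07 without C2, and 0.06 with length and GC trends removed. The difference between the 2 transgene effects was also called for 0 members (0% of all genes, and 0 members at an unadjusted p under 0.05 against 2.11% of all genes), with a median of 0.22, which ranged from 0.08 (without E2) to 0.34 (without WT3) over omissions of single mice and was 0.17 with length and GC trends removed. In the pooled transgene effect, E and CE against WT and C, 0 members were called (0.539% of all genes, and 0 members at an unadjusted p under 0.05 against 8.98% of all genes) and the median was -0.08. That median ranged from -0.03 (without E2) to -0.14 (without WT3), was -0.03 with limma voom and -0.02 with length and GC trends removed, and turned to 0.0038 with the replicate block as well. DESeq2 and limma voom called 0 members in each of these 4 comparisons. Markers of other cells differed with the transgene: those of the B lineage summed to 89.0 to 163 CPM in WT and 146 to 212 in C against 64.3 to 78.9 in E and 64.1 to 72.3 in CE, with 7 of 9 called lower in the pooled effect (1 of the 10 listed was at 0 in all libraries of WT and 1 in all of CE). Erythroid markers had 10 of 10 estimates below 0 in that effect (median -0.76) and 0 called. The part of these cells in the members' values was not tested.

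Single members differed little in the transgene comparisons. Rps29, a zinc-binding protein of the small subunit, was lowest (log2 -0.34, SE 0.17, adjusted p = 0.768), followed by Rpl41, the shortest ribosomal protein (log2 -0.33, SE 0.16, adjusted p = 0.768). Rpl4, which reaches into the exit tunnel, was the only member above 0 (log2 0.06, SE 0.10, adjusted p = 0.907), and Rps7 was next (log2 -0.04, SE 0.12, adjusted p = 0.964). Rplp1 had the largest difference between the transgene effects (log2 0.38, SE 0.23, adjusted p = 1) and Rpl4 the lowest (log2 -0.14, SE 0.15, adjusted p = 1). In CE against C, Rps15 was highest (log2 0.13, SE 0.16, adjusted p = 0.999) and Rpl5 lowest (log2 -0.14, SE 0.12, adjusted p = 0.999). In the pooled transgene effect Rps29 was lowest (log2 -0.21, SE 0.12, adjusted p = 0.642) and Rpl4 highest (log2 -0.01, SE 0.07, adjusted p = 0.985), with Rps9 next to it (log2 -0.03, SE 0.10, adjusted p = 0.963).

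Loss of the caspases without the transgene was addressed by C against WT. All 77 members were lower in C, with a median log2 of -0.39 (1.31-fold) against -0.01 for all genes, but 0 passed (0.656% of all genes). The smallest adjusted p was 0.0595, for Rps29. An unadjusted p under 0.05 was reached by 61 members (79.2%), all lower, against 12.7% of all genes in that direction, and for 45 (58.4%) every library of C lay below every library of WT, against 13.9% of all genes. DESeq2 called 33 members lower (42.9%, against 5.55% of all genes called lower in that fit) and edgeR without a filter on low counts 46 (59.7% against 3.79%). Limma voom called 11 (14.3% against 6.34% lower and 12.3% in either direction), and edgeR with the replicate number as a block 13 (16.9% against 6.92% lower and 14.1% in either direction). WT4 has no mouse of the same number in another group, so the block gives it no weight, much as leaving WT4 out does. Without WT3, 34 members were called (44.2% against 3.68%), and without WT4 11 (14.3% against 7.14% lower and 15.2% in either direction). With length and GC trends removed, the median was -0.15 and 0 were called. With a covariate for Y-linked transcripts it was -0.24, with 0 members at an unadjusted p under 0.05 and 1 of 14473 genes called. All of C and none of WT or E carry these transcripts. The covariate thus rests on CE1 and CE2 against the single library CE3, and cannot separate sex from the deletion in C against WT.

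In CE against E, which shares no library with C against WT, 74 members were lower in CE, with a median of -0.19, and 0 passed (1.58% of all genes). An unadjusted p under 0.05 was reached by 14 members (18.2%), against 12% of all genes in the lower direction. Libraries did not overlap for 4 members (5.19%), Rps3a1, Rpl23, Rpl5 and Rpl4, a smaller share than the 15.1% of all genes. DESeq2 called these 4, voom and the replicate block called Rps3a1, Rpl23 and Rpl5, and edgeR without a filter called those 3 and Rpl36a. In the same fits 5.54% of all genes (DESeq2), 5.47% (voom), 5.49% (block) and 2.78% (no filter) were called lower, against 5.19% of members with DESeq2 or no filter and 3.9% with voom or the block, so these shares lay near or below those of all genes except without a filter. With length and GC trends removed the median turned to 0.02. Without CE1 and CE2, so that every library compared lacked Y-linked transcripts, it was -0.10, with 54 members lower. That fit holds CE3 as the lone CE library, whose spread is taken from the remaining groups, and called 2 of 16135 genes in all. The median was -0.07 without E1 (53 members lower), -0.10 without CE2 and -0.29 without E2. Without E2, 76 members were lower and 36 had an unadjusted p under 0.05. The share of all genes at that level was not computed for this fit. In it 0 members passed (smallest adjusted p = 0.0718, edgeR), and 8 of 14888 genes did.

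Over both backgrounds, C and CE against WT and E, 36 of the 77 members were called and all 36 were lower (46.8%, against 21% of all genes called and 11.8% called lower). All 77 estimates were below 0, with a median log2 of -0.29 (1.22-fold) against 0.00 for all genes and a median SE of 0.10. The large subunit gave 24 of 46 calls and the small subunit 12 of 31, with medians of -0.29 and -0.26. Myc, named above as an activator of ribosome production, was also called lower here (log2 -0.31, SE 0.07, adjusted p = 0.00816), with every library of C below every library of WT and every library of CE below every library of E, and its part in the members' values was not tested. Bulk RNA cannot tell less of these transcripts per cell from a change in the mix of cells. The calls were not stable. They fell to 0 with a covariate for Y-linked transcripts (median -0.17, with 66 members lower, and 2 calls among all genes) and to 0 without C1 and C3 (median -0.22, with 20 calls among all genes). The covariate rests on CE1 and CE2 against CE3, as in C against WT. A limma fit without correction for length and GC called 33 members (42.9%, against 11.7% of all genes called lower). With length and GC trends removed the same fit called 6 (Rps3a1, Rps29, Rpl41, Rpl38, Rpl35 and Rpl21), the median was -0.06 and 55 members were lower. These 6 are 7.79% of the members, near the 7.12% of all genes called lower in that fit (11.2% in either direction). With the replicate block added to that correction 10 were called (13% of members against 16.4% of all genes), 7 lower (9.45% of all genes were called lower), and Rps15a, Rps25 and Rps4x higher. Rps25 thus turned from called lower to called higher, in a fit where WT4 again had no weight. Rpl38, Rpl35, Rpl21, Rps15a and Rps25 are named here after their values were seen. Leaving out single libraries gave 15 calls (19.5% of members) without WT2, E1 or C3, where 6.85, 6.35 and 6.59% of all genes were called lower. There were 16 (20.8% against 7.81%) without CE2, 18 (23.4% against 7.55%) without C1 and 59 (76.6% against 11.5%) without WT3.

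**Figure D3:**
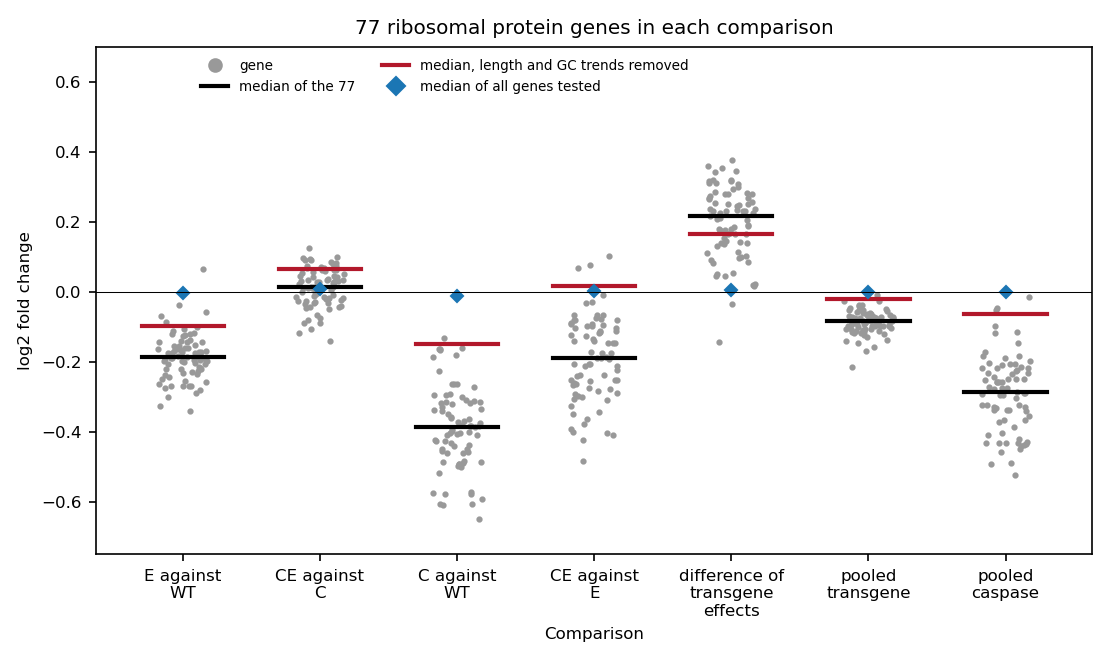
Log2 fold change of the 77 genes (grey points) in the 7 comparisons, with their median (black), the median with length and GC trends removed (red) and the median of all genes tested (blue). The medians of C against WT and of the pooled caspase difference move from -0.39 to -0.15 and from -0.29 to -0.06 on removal of the trends.

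The 6 largest pooled caspase differences were in Rps29, Rpl36a, Rps3a1, Rps28, Rpl41 and Rpl17. Rps29 (gene 20090, chromosome 12, 69157722 to 69159186, mm10) had values of 639 CPM in WT2, 417 in WT3, 555 in WT4 (wild type), 532 in E1, 339.9 in E2, 402 in E3 (transgene), 337 in C1, 368 in C2, 322 in C3 (deletion) and 352 in CE1, 286 in CE2, 327 in CE3 (both). Its highest values were in WT2, WT4 and E1, E2 lay within the range of C, and the groups gave means of 537 ± 112 (WT), 424 ± 97.8 (E), 342 ± 23.1 (C) and 322 ± 33.6 (CE; SD, n = 3 each). It fell 1.44-fold (log2 -0.52, SE 0.12, adjusted p = 0.00903, edgeR).

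Rpl36a, an X-linked protein of the large subunit near the exit site of tRNA (gene 19982, chromosome X, 134585654 to 134588062), had values of 637 CPM in WT2, 459 in WT3, 541 in WT4 (wild type), 583 in E1, 379 in E2, 462 in E3 (transgene), 374 in C1, 388 in C2, 337 in C3 (deletion) and 388 in CE1, 312 in CE2, 372 in CE3 (both). E2 lay below C2 and CE1, so the libraries overlapped. It fell 1.41-fold (log2 -0.49, SE 0.11, adjusted p = 0.00859), and with length and GC trends removed the estimate was log2 -0.07 (adjusted p = 0.503).

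Rps3a1, a small subunit protein at the mRNA exit (gene 20091, chromosome 3, 86137940 to 86142668), had values of 1854 CPM in WT2, 1562 in WT3, 1547 in WT4 (wild type), 1896 in E1, 1307 in E2, 1564 in E3 (transgene), 1189.6 in C1, 1222 in C2, 1103 in C3 (deletion) and 1231 in CE1, 1060.0 in CE2, 1121 in CE3 (both). Every library with the caspase deletion lay below every library without it, from CE1 at 1231 to E2 at 1307 CPM. It fell 1.40-fold (log2 -0.49, SE 0.09, adjusted p = 0.00455). It remained called with length and GC trends removed (log2 -0.20, adjusted p = 0.0486), but not with the covariate for Y-linked transcripts (log2 -0.52, SE 0.20, adjusted p = 0.215) or without C1 and C3 (log2 -0.45, adjusted p = 0.105).

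Rps28 and Rpl41 are among the shortest members, with transcripts of 271 and 437 bases. Rps28 (gene 54127, chromosome 17, 33823036 to 33824562) had values of 504 CPM in WT2, 375 in WT3, 479 in WT4 (wild type), 484 in E1, 284 in E2, 381 in E3 (transgene), 290.0 in C1, 329 in C2, 273 in C3 (deletion) and 321 in CE1, 257 in CE2, 348 in CE3 (both). The overlap came from E2 alone, which lay between C3 and C1. Rps28 fell 1.37-fold (log2 -0.46, SE 0.12, adjusted p = 0.0187), and lost its call without WT2, E1 or C3 and with length and GC trends removed (adjusted p = 0.109). Rpl41 (gene 67945, chromosome 10, 128548110 to 128549168) had values of 1661 CPM in WT2, 1157 in WT3, 1474 in WT4 (wild type), 1415 in E1, 917 in E2, 1089.6 in E3 (transgene), 918 in C1, 1037 in C2, 864 in C3 (deletion) and 957 in CE1, 820.1 in CE2, 1025 in CE3 (both), with E2 alone among the values of C and CE. Rpl41 fell 1.36-fold (log2 -0.45, SE 0.12, adjusted p = 0.0159), and remained called with length and GC trends removed (log2 -0.24, adjusted p = 0.0313). Rpl17, at the exit rim of the large subunit, gave means of 1211 ± 167 (WT), 1112 ± 196 (E), 863 ± 42.1 (C) and 848 ± 108 (CE; SD, n = 3 each) CPM and fell 1.36-fold (log2 -0.44, SE 0.10, adjusted p = 0.00985).

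**Figure D4:**
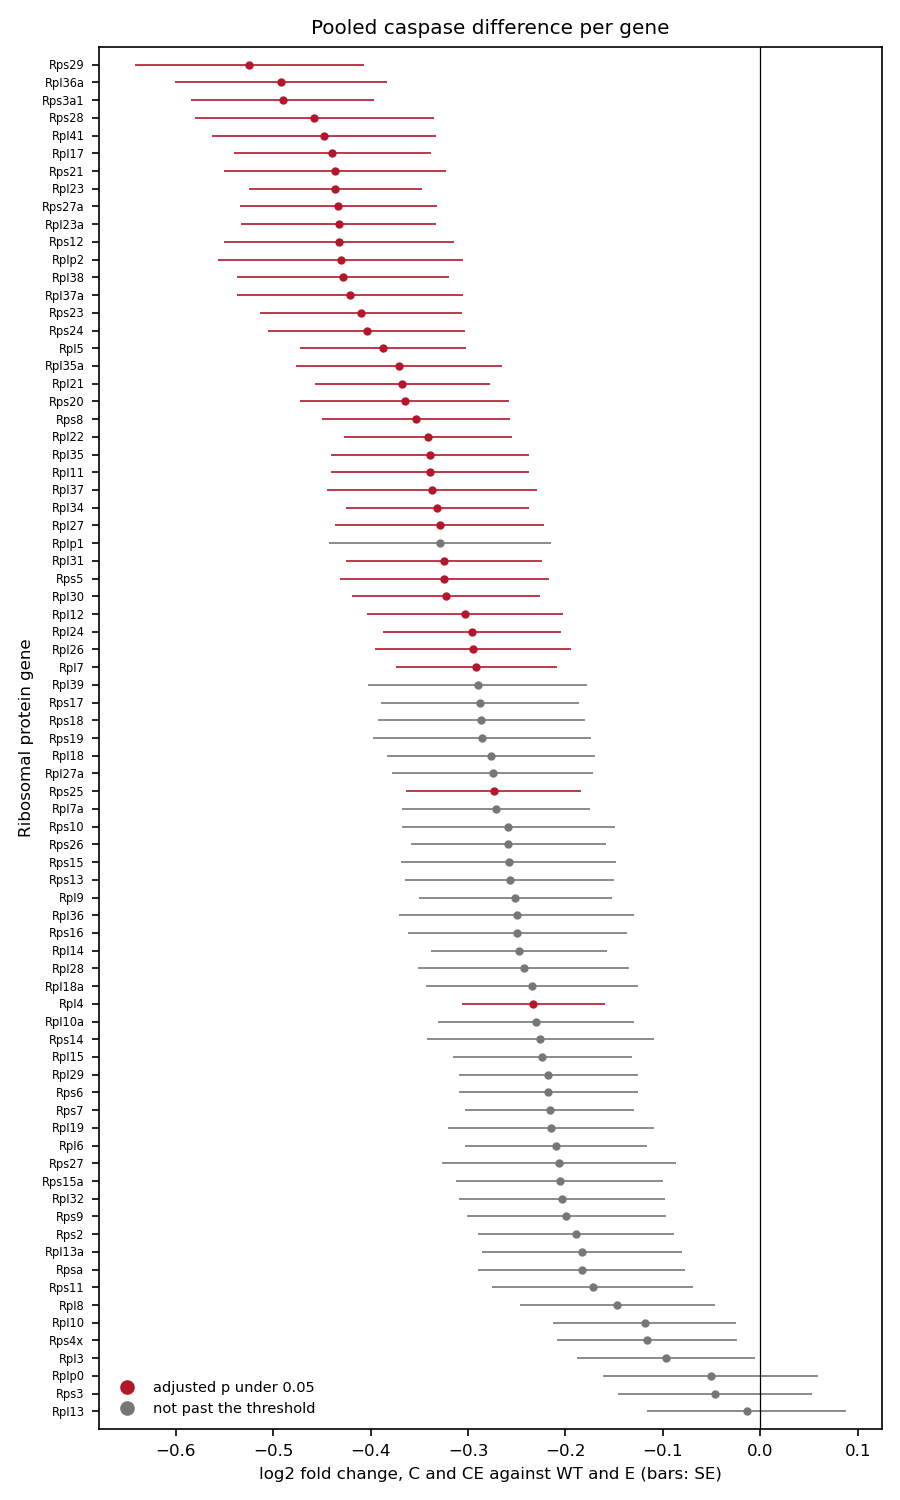
Pooled caspase log2 fold change of each of the 77 genes (point, bar: SE), with the 36 called genes in red. Every point lies below 0, from -0.52 for Rps29 to -0.01 for Rpl13.

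Only 4 members had no overlap between the 6 libraries with and the 6 without the deletion (5.19%, against 4.63% of all genes in the lower direction), namely Rps3a1 and 3 large subunit members. Rpl5 (gene 100503670, chromosome 5, 107900508 to 107909005) had values of 621 CPM in WT2, 488 in WT3, 524 in WT4 (wild type), 556 in E1, 437 in E2, 526 in E3 (transgene), 419 in C1, 436 in C2, 410.2 in C3 (deletion) and 429.5 in CE1, 354 in CE2, 364 in CE3 (both). C2, the highest library with the deletion, and E2, the lowest without it, were nearly equal. Rpl5 fell 1.31-fold (log2 -0.39, SE 0.09, adjusted p = 0.00859). Rpl23 (gene 65019, chromosome 11, 97777526 to 97782439), which also binds Mdm2, had values of 1187 CPM in WT2, 974 in WT3, 1072 in WT4 (wild type), 1145 in E1, 834 in E2, 1015 in E3 (transgene), 807 in C1, 822 in C2, 741 in C3 (deletion) and 808 in CE1, 677 in CE2, 745 in CE3 (both). C2 and E2 again stood next to each other. Rpl23 fell 1.35-fold (log2 -0.44, SE 0.09, adjusted p = 0.00596). Rpl4 (gene 67891, chromosome 9, 64173387 to 64178562) had values of 2810.4 CPM in WT2, 2684 in WT3, 2660.4 in WT4 (wild type), 2944 in E1, 2644 in E2, 2937 in E3 (transgene), 2479 in C1, 2484 in C2, 2332 in C3 (deletion) and 2555 in CE1, 2195 in CE2, 2151 in CE3 (both). It varied least from library to library of all members (within-group SD 0.09 log2) and fell 1.18-fold (log2 -0.23, SE 0.07, adjusted p = 0.0361), with the call lost in 14 of its 23 alternatives.

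The partner of Rpl5 in the 5S particle, Rpl11, gave means of 1061 ± 190.3 (WT), 878 ± 131 (E), 775 ± 52.7 (C) and 752 ± 74.8 (CE; SD, n = 3 each) CPM and fell 1.26-fold (log2 -0.34, SE 0.10, adjusted p = 0.0296), so that both members of the particle were called. Of the 4 stalk proteins, which recruit elongation factors, Rplp2 and Rpl12 were called. These small groups stand beside 46.8% of all members and 11.8% of all genes called lower. The calls of Rpl11 and Rplp2 were lost in 10 and 9 of their 23 alternatives. Rplp2 gave means of 2507 ± 497 (WT), 2079 ± 463 (E), 1644 ± 133 (C) and 1745 ± 299 (CE; SD, n = 3 each) CPM and fell 1.35-fold (log2 -0.43, SE 0.13, adjusted p = 0.0267). Rplp1 (means of 3799.9 ± 700.3 (WT), 3131 ± 594 (E), 2654 ± 216 (C) and 2843 ± 359 (CE; SD, n = 3 each) CPM) had a like estimate that did not pass (log2 -0.33, SE 0.11, adjusted p = 0.0534). Rplp0, the scaffold of the stalk and a common reference gene in PCR, had values of 3880.2 CPM in WT2, 3264 in WT3, 4789 in WT4 (wild type), 3958 in E1, 2946 in E2, 3569.6 in E3 (transgene), 3471 in C1, 3827 in C2, 3239 in C3 (deletion) and 3771 in CE1, 3125 in CE2, 4158 in CE3 (both). WT4 and CE3 were its highest libraries, the groups overlapped throughout, and it did not pass (log2 -0.05, SE 0.11, adjusted p = 0.776).

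The other members at that end were Rpl13 (means of 1402 ± 293 (WT), 1248 ± 127 (E), 1280.0 ± 94.1 (C) and 1341 ± 155 (CE; SD, n = 3 each) CPM, log2 -0.01, SE 0.10, adjusted p = 0.938) and Rps3, a protein of the mRNA entry tunnel (means of 3452 ± 607 (WT), 3032 ± 361 (E), 3085 ± 205 (C) and 3181 ± 374 (CE; SD, n = 3 each) CPM, log2 -0.05, SE 0.10, adjusted p = 0.771). The 4 X-linked members, which a sex difference could touch, were Rpl36a, Rpl39, Rpl10 and Rps4x, and only Rpl36a was called. Rps4x had values of 1142 CPM in WT2, 1067 in WT3, 1393 in WT4 (wild type), 1270.1 in E1, 960.3 in E2, 1163 in E3 (transgene), 1061 in C1, 1139.8 in C2, 1011 in C3 (deletion) and 1149 in CE1, 965 in CE2, 1127 in CE3 (both), with overlap between all groups (log2 -0.12, SE 0.09, adjusted p = 0.393), and its estimate turned to 0.22 (adjusted p = 0.0403) with the block and the length and GC correction together. Rpl10, which completes the large subunit late in its assembly, gave means of 1343 ± 208 (WT), 1230.4 ± 165 (E), 1200.3 ± 53.4 (C) and 1168 ± 118 (CE; SD, n = 3 each) CPM (log2 -0.12, SE 0.09, adjusted p = 0.392). Rpl39 gave means of 11.6 ± 1.73 (WT), 10.4 ± 0.845 (E), 9.34 ± 1.24 (C) and 8.61 ± 1.23 (CE; SD, n = 3 each) CPM (log2 -0.29, SE 0.11, adjusted p = 0.0789).

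Of 19 members tied to Diamond-Blackfan anaemia or to the myelodysplastic syndrome of RPS14, 10 were called lower, with a median of -0.29, the same as over all members. Rps19, the most often mutated of them (gene 20085, chromosome 7, 24884592 to 24889811), had values of 2085 CPM in WT2, 1598 in WT3, 2191 in WT4 (wild type), 2023 in E1, 1356 in E2, 1675 in E3 (transgene), 1441 in C1, 1591 in C2, 1341 in C3 (deletion) and 1584 in CE1, 1299.9 in CE2, 1681 in CE3 (both). WT2, WT4 and E1 lay above the other 9 libraries, which ranged between 1299.9 and 1681 CPM, and Rps19 did not pass (log2 -0.29, SE 0.11, adjusted p = 0.0814). Rps14 gave means of 2514 ± 417 (WT), 2143 ± 439 (E), 1924 ± 157 (C) and 2048 ± 316 (CE; SD, n = 3 each) CPM and did not pass either (log2 -0.23, SE 0.12, adjusted p = 0.18). Rps6, the member phosphorylated downstream of mTORC1, gave means of 1119 ± 147 (WT), 1014 ± 139.8 (E), 912 ± 57.5 (C) and 919.7 ± 92.3 (CE; SD, n = 3 each) CPM (log2 -0.22, SE 0.09, adjusted p = 0.106), and Rpsa, the laminin receptor protein of the small subunit, means of 3575 ± 580.2 (WT), 2969.7 ± 479 (E), 2826 ± 229 (C) and 2913 ± 368 (CE; SD, n = 3 each) CPM (log2 -0.18, SE 0.11, adjusted p = 0.23). Rps27a, which is made as a fusion with ubiquitin, gave means of 1213 ± 172 (WT), 1068 ± 199 (E), 856 ± 49.0 (C) and 829 ± 88.6 (CE; SD, n = 3 each) CPM and fell 1.35-fold (log2 -0.43, SE 0.10, adjusted p = 0.0105). Rpl22, whose loss impairs T cell development, gave means of 992 ± 80.2 (WT), 926 ± 148 (E), 761 ± 45.1 (C) and 752 ± 60.6 (CE; SD, n = 3 each) CPM and fell 1.27-fold (log2 -0.34, SE 0.09, adjusted p = 0.015), but its estimate was 0.06 with length and GC trends removed. In the exit tunnel and its rim 6 of 8 members were called lower (median -0.31), and in the mRNA entry and decoding region 1 of 4 (median -0.22). Every estimate in both regions was below 0. Over all 77 members 46.8% were called lower, against 11.8% of all genes, and the difference between these small regions was not tested.

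**Figure D5:**
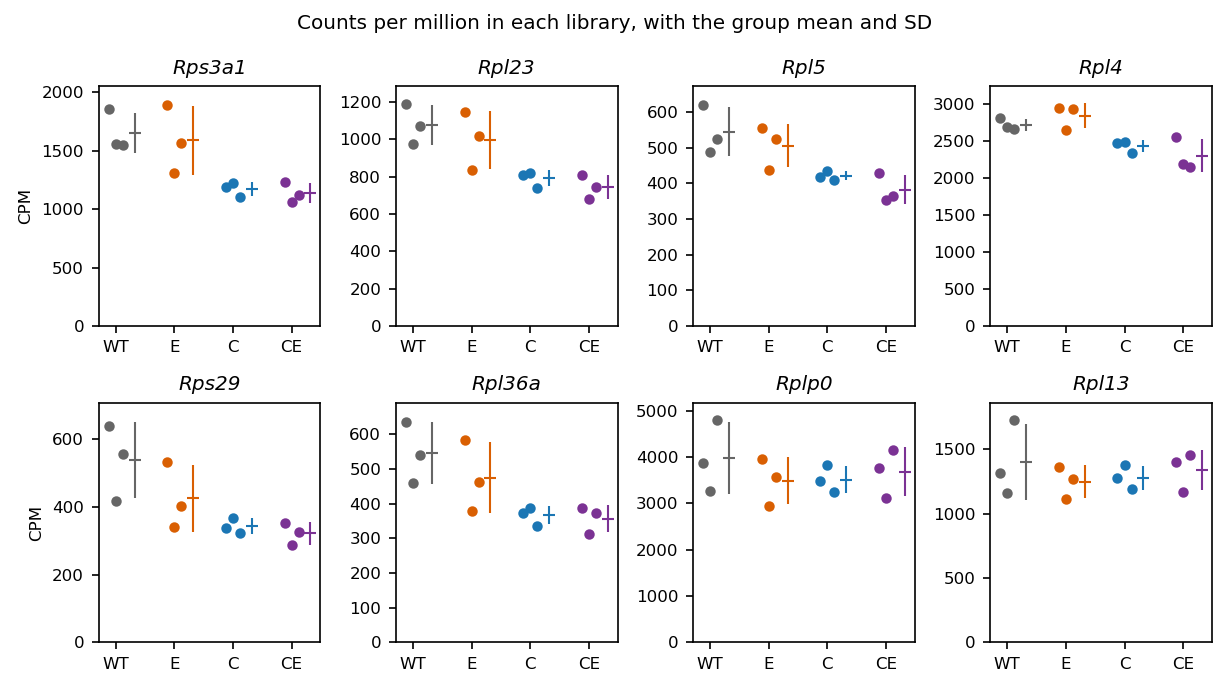
CPM of 8 members in each library (points, 3 mice per group, in the order of their numbers) with the group mean and SD beside them. Rps3a1, Rpl23, Rpl5 and Rpl4 separate C and CE from WT and E, while Rps29 and Rpl36a overlap through E2, and Rplp0 and Rpl13 overlap in all groups.

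The called members had shorter transcripts than the others (median 626 against 751 bases), lower GC content (median 49.7 against 53.5%) and lower levels (median 862 against 1421 CPM). Across the 77 members, the pooled caspase log2 fold change had a Spearman correlation of 0.35 with transcript length, 0.29 with GC content and 0.45 with mean CPM, given as a description of genes that are not independent. Sorted by the start of the transcript, members with a C and at least 4 pyrimidines at the annotated start had a median of -0.25 (4 of 12 called), and the other 45 with a window a median of -0.28 (22 called). Allowing 10 bases on either side, it was -0.27 with such a stretch (10 of 29 called) and -0.29 without (16 of 28 called). With the CCGGAAG motif the median was -0.29 (11 of 22 called) and without it -0.26 (15 of 35 called). With the E-box it was -0.25 (2 of 5 called) and without it -0.28 (24 of 52 called). Of all members 46.8% were called lower, against 11.8% of all genes. The start of 11 of the 57 lies over 20 bases inside the gene, among them Rpl38, counted with a stretch at the start. These differences were not tested.

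Ribosomal proteins that the symbol rule leaves out were lower as well: 9 of 9 tested had estimates below 0 in the pooled caspase difference, and 3 were called. These were the paralogs Rps27l (fell 1.40-fold, log2 -0.49, SE 0.09, adjusted p = 0.0047), Rpl22l1 (fell 1.40-fold, log2 -0.48, SE 0.09, adjusted p = 0.00429) and Rpl36al (fell 1.37-fold, log2 -0.45, SE 0.09, adjusted p = 0.00635). Fau, which encodes a ribosomal protein fused to a ubiquitin-like protein, did not pass (log2 -0.30, SE 0.11, adjusted p = 0.0689), nor did Rack1, a scaffold on the small subunit (log2 -0.15, SE 0.10, adjusted p = 0.281).

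Among 14 elongation factors and other transcripts with a pyrimidine tract, 5 were called lower and 1 higher, beside 11.8% of all genes called lower and 9.26% called higher. Npm1, a nucleolar chaperone of ribosome assembly, fell 1.48-fold (log2 -0.57, SE 0.13, adjusted p = 0.00872) and the noncoding host gene Gas5 1.34-fold (log2 -0.43, SE 0.09, adjusted p = 0.00584), whereas Eef2, the translocase of elongation, rose 1.29-fold (log2 0.37, SE 0.11, adjusted p = 0.0278). Of 28 initiation factors 7 were called lower, led by Eif2s3x, an X-linked subunit of eIF2 with a copy on the Y chromosome (log2 -0.57, SE 0.09, adjusted p = 0.00267), and of 8 chaperones of ribosomal proteins 2 were (Bccip and Ltv1). Sex and the caspase label nearly coincide in these libraries, so their parts in the Eif2s3x value cannot be told apart. RNA polymerase I, which makes ribosomal RNA, had 2 of 14 subunits and factors called lower, Polr1d (log2 -0.39, SE 0.08, adjusted p = 0.00643) and Znrd1, a share near that of all genes. The mTORC1 list had 2 of 13 called lower and 5 higher. Eif4ebp3, a brake on cap-dependent translation, fell 1.68-fold (log2 -0.75, SE 0.14, adjusted p = 0.00392), while Eif4ebp2, a paralog with the same role, rose 1.34-fold (log2 0.42, SE 0.10, adjusted p = 0.00957) and the mTORC1 subunit Rptor 1.28-fold (log2 0.35, SE 0.06, adjusted p = 0.00397). Of the 11 stem cell markers 4 were called higher. The median of the members was -0.29, of the tract list -0.19, of initiation factors -0.13 and of the mTORC1 list 0.06. All these values are of the pooled caspase difference. Among all genes it gave 2 calls with the covariate for Y-linked transcripts and 20 without C1 and C3.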

How the data were processed

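The authors deposited 1 table of raw counts per gene (27179 NCBI Gene numbers, 12 libraries). Alignment used STAR 2.5.3 and mm10, per the submitters' processing notes; the sources used here do not give the counter, annotation or strandedness. Symbols came from RefSeq for 25275 genes, and transcript lengths from GENCODE (the shortest principal transcript). The other 1904 genes were tested by number and held 0.546 to 2.45% of a library's counts.

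All 12 libraries were fitted with edgeR 4.0.16 in R 4.3.3 (TMM, filterByExpr by group, group means, quasi-likelihood F tests, two-sided), with Benjamini-Hochberg adjustment over 14473 genes. The biological coefficient of variation was 0.139. CPM were computed on the effective library size. Depth (24529611 to 34065910 counts) leaves the spread between libraries as the main error. With 1 library per mouse, differences between mice and between library preparations cannot be told apart. The members and gene lists were chosen with earlier results of these data known, and no list was tested as a set. Named members were the 6 largest called and the 2 extremes at each end per comparison, 15 fixed members, and the extremes in CPM per kb. Some genes outside the members that the rule would name are not reported here. Alternatives used DESeq2 1.42.0, limma 3.58.1, other filters and size factors, a replicate block, a covariate for libraries whose Y-linked transcripts exceed 1 CPM, removal of length and GC trends (13225 genes with a length) and omission of libraries. In the block WT4 stands alone at its number and has no weight, and the covariate varies within a group only in CE. Replicate numbers gave no sign of pairing the mice: deviations of 15 same-numbered pairs correlated at -0.36 to 0.24, and 4 exceeded 0.1. Pairs of different number ranged from -0.36 to 0.38. With 3 libraries a group, such values cannot show whether the mice were paired. The fitting script was tested on simulated data, where changes near the size of the members' were mostly missed.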

Additional observations from a re-analysis of the deposited data

How the results depend on the processing

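The number of members called in the pooled caspase difference was 36. It was 0 with a covariate for Y-linked transcripts, 0 without C1 and C3, 6 with length and GC trends removed and 10 with the replicate block and that correction together. It ranged from 15 to 59 when single libraries were left out, and lay between 32 and 50 under RLE factors, other filters, DESeq2, limma voom and the replicate block. In these latter fits 8.07% (no filter) to 15.7% (limma voom) of all genes were called lower. The median of -0.29 moved to -0.0619 with length and GC trends removed and to -0.0546 with the block as well.

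In C against WT the count of 0 became 33 with DESeq2, 11 with limma voom, 46 with no filter on low counts, 13 with the replicate block and 1 with the block and the length and GC correction. It ranged from 0 to 34 when single libraries were left out. The median of -0.39 moved to -0.15 with length and GC trends removed and to -0.11 with the block as well. In CE against E the count of 0 became 4 with DESeq2, 3 with limma voom, 4 with no filter and 3 with the replicate block, and the median of -0.19 turned to 0.0181 with length and GC trends removed, with or without the block. The numbers gave no sign of pairing the mice, and the block gives WT4 no weight. Without the length and GC correction the block moved no other count of calls by over 1.5 times.

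Without the most counted genes the members' mean share of counts was 9.55% (WT), 8.84% (E), 7.60% (C) and 7.70% (CE). In E against WT, CE against C, the difference of the transgene effects and the pooled transgene effect, 0 members were called under every alternative run.

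Over 27 named members, 7 comparisons and their alternatives (3780 values), the sign changed in 296, of which 3 involved a call: Rpl22 in the pooled caspase difference at 0.0555 with length and GC trends removed and 0.0843 with the block as well, and Rps4x at 0.22 under the latter. The other sign changes were of values that passed in neither fit and were at most 0.22 in size. The cause of these differences was not tested. The alternatives with limma but without the correction, and without CE1 and CE2, were added after the data had been seen.

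With 3 mice a group and a median SE of 0.14 in 2-group comparisons, differences of the size seen here are near the limit of detection. The length and GC correction rests on 1 transcript per gene and on trends fitted with the members included. Sex and the caspase label cannot be fully told apart.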
